A study of Homo sapiens with 4 samples.

Results

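The eukaryotic translation initiation factors were followed in HepG2-labelled cells in which the transcription factor STAT3 was knocked down. The members were the rows of the deposited count table whose gene name starts with EIF and a number between 1 and 6. Genes of the EIF4EBP and EIF2AK families, pseudogene names and read-through names were left out. This gave 48 genes of 27452 in the table, and 46 of them passed the low-count filter and were tested. EIF2S3B was listed at 0 reads in every library and EIF1AY did not pass the filter. RNA sequencing covered 2 libraries of cells carrying an shRNA against STAT3 (STAT3 shRNA) and 2 libraries of cells carrying a control shRNA (Ctrl shRNA). Both groups are described as the human hepatoma line HepG2 grown in DMEM with 10% fetal bovine serum, and neither the hairpin sequences nor the time since knockdown were given. The labels did not say whether the numbers 1 and 2 within a group stand for separate cultures, different hairpins or repeats of 1 sample, so the p-values below rest on library-to-library spread alone, and this may be purely technical.

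Initiation factors bring the initiator tRNA, the messenger RNA and the ribosomal subunits together. The eIF2 complex carries the initiator tRNA and is recharged by eIF2B, eIF3 holds the small ribosomal subunit ready, and the eIF4 group binds the messenger RNA cap and unwinds the leader, while eIF5, eIF5B and eIF6 act on GTP hydrolysis and on the joining of the subunits. The cap-binding step is a main point of control by growth factor signalling.

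The libraries held 25862027 and 17694642 counted reads with STAT3 shRNA, against 19283150 and 20133064 reads with Ctrl shRNA. STAT3 itself had 34.7 and 36.1 CPM (read counts relative to library depth, scaled by the trimmed mean of M-values, TMM) in the STAT3 shRNA libraries, against 245.0 and 244.3 CPM in the Ctrl shRNA libraries. This was a 6.91-fold fall, with a log2 fold change of -2.79 ± 0.09 (SE) and adjusted p = 3.28e-07. Every adjusted p on counts comes from the edgeR quasi-likelihood fit to all genes past the filter, with the Benjamini-Hochberg method, and errors of fold changes are SE. Of 10 genes that define hepatic lines, 4 were in the table, while AFP, APOB, TTR, SERPINA1, FGB and FGA had no row. ALB, the serum albumin gene, had 0 and 3 reads with STAT3 shRNA, against 0 and 0 reads with Ctrl shRNA. APOA1, an apolipoprotein gene, had 1 and 2 reads with STAT3 shRNA, against 0 and 0 reads with Ctrl shRNA. The hepatic transcription factor HNF4A rose, with 192 and 91 reads with STAT3 shRNA, against 24 and 34 reads with Ctrl shRNA (3.99-fold, edgeR adjusted p = 0.00131). The transferrin gene TF fell, with 24 and 8 reads with STAT3 shRNA, against 38 and 41 reads with Ctrl shRNA (log2 fold change -1.59, edgeR adjusted p = 0.0236). Together the 4 hepatic genes summed to 8.14 and 5.65 CPM with STAT3 shRNA, against 3.29 and 3.92 CPM with Ctrl shRNA. At these levels the markers do not back the HepG2 label, and the bearing of this on the results was not tested. In bulk RNA, fewer cells expressing a gene and less RNA per cell cannot be told apart.

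Most initiation factors differed little between the groups, and more of those that passed the test were lower than higher in STAT3 shRNA cells. With an adjusted p under 0.05, 13 of the 46 tested members fell (28.3%) and 3 rose (6.52%), while over all 15199 tested genes 18.7% fell, 16.8% rose and 35.5% changed in either direction. The 13 that fell were EIF4E2, EIF3C, EIF3G, EIF4H, EIF6, EIF5A, EIF4A1, EIF3K, EIF3L, EIF2S3, EIF4A3, EIF2B5 and EIF3B, and the 3 that rose were EIF3CL, EIF4E3 and EIF3M. The libraries of the 2 groups did not overlap in any of these 16 genes. The same held for 21 members that were not called and for 10755 of all 15199 tested genes, so it sets them little apart. The median log2 fold change was -0.10 over the 46 members and 0.02 over all tested genes. A change of at least 2-fold was seen in EIF3CL and EIF4E2, the first of which is a near-identical copy of EIF3C.

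The balance of calls depended on the scaling, and their number on the libraries used. The members' median minus the median of all genes was -0.12 with TMM and with total-count scaling alike. Such a change of scaling moves all genes by nearly the same amount, so this difference could hardly change. Over the other alternatives it ran between -0.19 with an offset for GC content and -0.10 without STAT3 shRNA replicate 1. With scaling to total counts the median of all genes moved to 0.12, 62.4% of called genes were higher in place of 47.3%, and 8 members rose while 7 fell. EIF2B5, EIF2S3, EIF3B, EIF3K, EIF3L and EIF4A3 were then no longer called. Without STAT3 shRNA replicate 1, 2 members rose and 5 fell; without STAT3 shRNA replicate 2, 1 rose and 4 fell. Without Ctrl shRNA replicate 1, 8 rose and 18 fell, and without Ctrl shRNA replicate 2, 4 rose and 16 fell. EIF2B5, EIF2S3, EIF3B, EIF3K, EIF3L, EIF4A1, EIF4A3, EIF6 and EIF3M lost their calls on leaving out either library of the STAT3 shRNA group. With an offset for GC content, 1 member rose and 19 fell, and EIF3B, EIF3M and EIF4E3 lost their calls. EIF3C, EIF3CL, EIF4E2 and EIF4H were the members called under every alternative that was run.

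**Figure D1:**
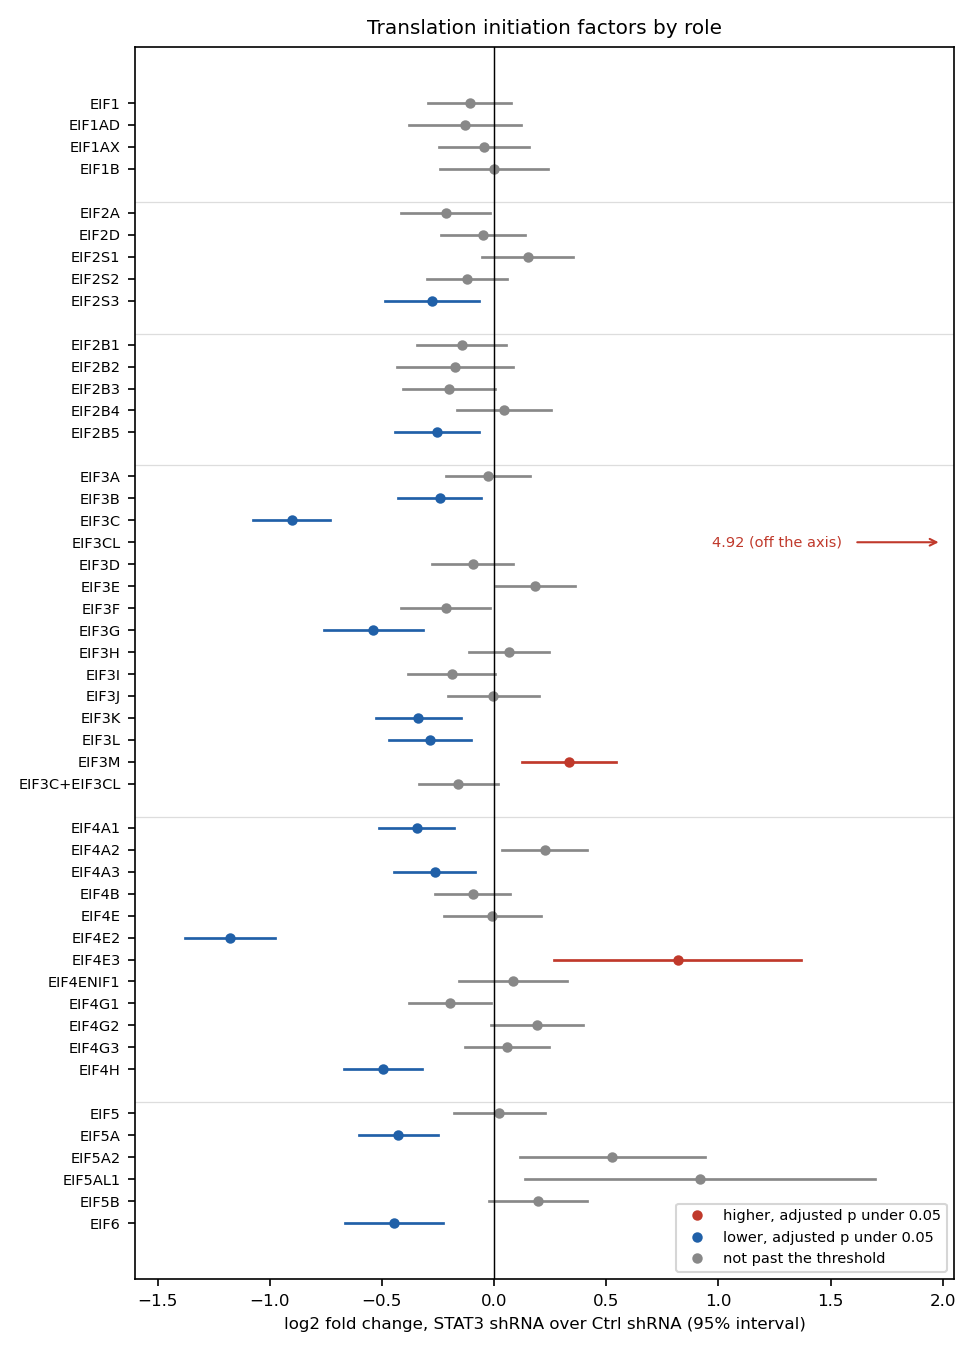
Log2 fold change (STAT3 shRNA over Ctrl shRNA) of the 46 tested initiation factors, 1 point a gene with its 95% confidence interval. EIF3CL, at 4.92, lies off the axis and is marked by an arrow, the EIF3C pair is also shown summed, EIF4E2 and EIF3C lie farthest to the left at -1.18 and -0.90, and most other genes lie near 0.

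**Figure D2:**
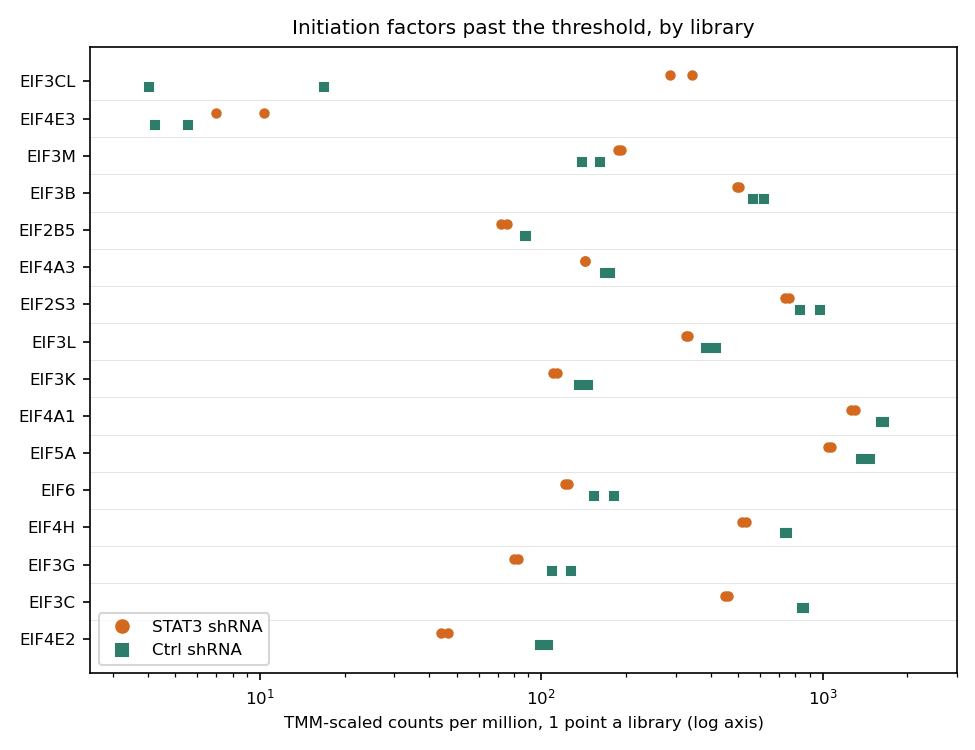
TMM-scaled CPM (log axis) of the 16 called initiation factors, 1 point a library. The STAT3 shRNA points lie to the right of the Ctrl shRNA points for EIF3CL, EIF4E3 and EIF3M and to the left for the 13 others.

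The largest shift lay within a pair of near-identical genes of eIF3, the multi-subunit scaffold on the small ribosomal subunit. EIF3C encodes its c subunit at chr16:28688558-28735730 (GRCh38, plus strand), and EIF3CL is a second copy at chr16:28379579-28403879 on the minus strand of the same chromosome. The EIF3CL transcript aligned to that of EIF3C over 3085 bases with 0 mismatches and 3 inserted bases. The stretch around the insertion is shown because it was the place where the copies could be told apart within that alignment. It lies in coding sequence of exon 9 of both transcripts (GENCODE 29, GRCh38), and capitals mark the inserted bases.
EIF3CL, chr16:28392016-28392078, minus strand: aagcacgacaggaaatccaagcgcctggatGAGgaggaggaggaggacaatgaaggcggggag
EIF3C, chr16:28723228-28723287, plus strand: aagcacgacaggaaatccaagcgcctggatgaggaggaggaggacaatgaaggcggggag

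EIF3CL had 9182 and 5281 reads with STAT3 shRNA, against 318 and 77 reads with Ctrl shRNA. In scaled units this was 344.5 and 287.0 CPM in STAT3 shRNA cells, against 16.9 and 4.03 CPM in Ctrl shRNA cells. Both STAT3 shRNA libraries were far above both Ctrl shRNA libraries, which themselves differed severalfold. The log2 fold change was 4.92 ± 0.43 (SE), or 30.3-fold, with an adjusted p of 9.80e-05 in the edgeR test. The size rested on the Ctrl shRNA libraries, with a log2 fold change of 6.26 without Ctrl shRNA replicate 1 and 4.22 without Ctrl shRNA replicate 2. EIF3C moved the other way, with 449.4 and 460.4 CPM in STAT3 shRNA cells, against 844.2 and 856.5 CPM in Ctrl shRNA cells, and a log2 fold change of -0.90 ± 0.08 (edgeR adjusted p = 8.41e-05). EIF3CL thus took 43.4% and 38.4% of the pair's reads with STAT3 shRNA, against 1.96% and 0.468% with Ctrl shRNA.

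Summed over the pair, the difference did not pass the test on counts or on the FPKM scale. The sum was 793.9 and 747.4 CPM in STAT3 shRNA cells, against 861.0 and 860.5 CPM in Ctrl shRNA cells. The means were 770.6 ± 32.8 CPM with STAT3 shRNA and 860.8 ± 0.356 CPM with Ctrl shRNA (SD, n = 2 each). On the log2 scale the sum changed by -0.16 ± 0.08 (95% interval -0.33 to 0.02), with an edgeR adjusted p of 0.14. In the authors' FPKM the sum was 331.1 and 347.6 with STAT3 shRNA, against 408.1 and 557.1 with Ctrl shRNA, a larger log2 fold change of -0.49 (limma adjusted p = 0.0993). The transcript length that counts and FPKM imply for EIF3C was 2239 and 1971 bases with STAT3 shRNA, against 2052 and 1464 bases with Ctrl shRNA. The larger change in FPKM thus does not follow read counts alone. On counts, total-count scaling gave -0.06 (edgeR adjusted p = 0.599). The sum passed the test without Ctrl shRNA replicate 1 (-0.19, adjusted p = 0.0259) and with an offset for GC content (-0.21, adjusted p = 0.0353). The separate values of EIF3C and EIF3CL are uncertain, since how the authors' counting assigned reads that match both copies was not given. With the pair counted as 1 gene, 45 members were tested, 2 rose and 12 fell, with a median log2 fold change of -0.11.

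**Figure D3:**
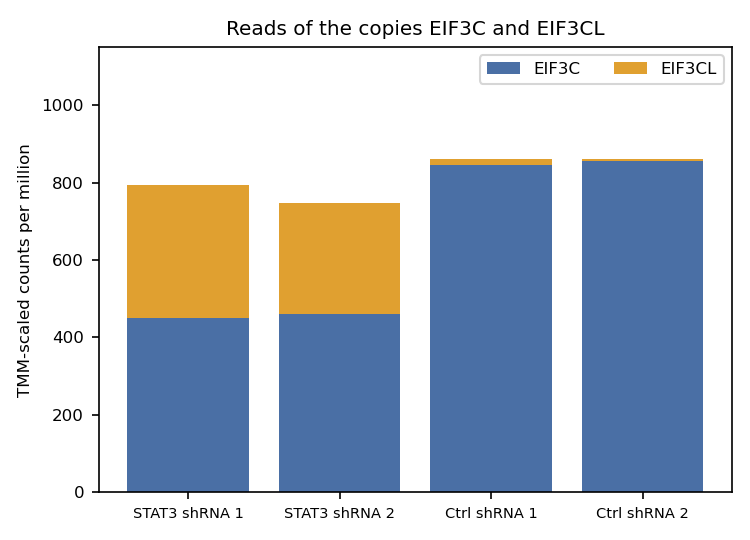
TMM-scaled CPM of EIF3C and EIF3CL, stacked, in each of the 4 libraries. The summed height varies between 747.4 and 861.0 CPM, while the EIF3CL part is large in both STAT3 shRNA libraries and close to nothing in both Ctrl shRNA libraries.

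The other eIF3 subunits moved less. Besides EIF3C and EIF3CL, 4 of the 12 fell, 1 rose and 7 were not called, beside 18.7% of all tested genes that fell and 16.8% that rose. EIF3G, an RNA-binding subunit that takes part in scanning, had 83.0 and 79.7 CPM with STAT3 shRNA, against 108.8 and 127.5 CPM with Ctrl shRNA. Its log2 fold change of -0.54 ± 0.10 (edgeR adjusted p = 0.00342) was the largest of the subunits outside the pair, and it was no longer called when the authors' FPKM values were tested instead of counts (-0.44, limma adjusted p = 0.0529). EIF3K and EIF3L, which sit together as a peripheral module of the complex, both fell. EIF3K had 113.7 and 109.8 CPM in STAT3 shRNA cells, against 136.3 and 146.2 CPM in Ctrl shRNA cells (-0.34 ± 0.08, edgeR adjusted p = 0.0136). EIF3L had 332.2 and 326.6 CPM in STAT3 shRNA cells, against 386.1 and 417.1 CPM in Ctrl shRNA cells (-0.29 ± 0.08, edgeR adjusted p = 0.0242). EIF3B, a core subunit that binds EIF3A, fell by a similar amount, with 496.1 and 502.6 CPM in STAT3 shRNA cells, against 616.5 and 565.3 CPM in Ctrl shRNA cells (-0.24 ± 0.08, edgeR adjusted p = 0.0449).

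EIF3M, a subunit of the structural core, was the member of the complex that rose apart from EIF3CL. It had 187.4 and 192.5 CPM in STAT3 shRNA cells, against 161.7 and 139.6 CPM in Ctrl shRNA cells, with a log2 fold change of 0.33 ± 0.09 and an edgeR adjusted p of 0.0227. EIF3A, the largest subunit and the scaffold of the core, had 524.2 and 497.8 CPM with STAT3 shRNA, against 542.2 and 498.6 CPM with Ctrl shRNA, and its groups overlapped. The interval of its log2 fold change ran from -0.21 to 0.16. EIF3E and EIF3H, also subunits of the structural core, gave 0.18 (edgeR adjusted p = 0.0962) and 0.07 (edgeR adjusted p = 0.545). EIF3J, a loosely bound subunit, gave 0.00, EIF3D, which can bind caps of some messenger RNAs, gave -0.10, and EIF3I, which joins the complex through EIF3B, gave -0.19, with edgeR adjusted p-values of 0.98, 0.383 and 0.117. For EIF3F, a further core subunit, 111.8 and 120.7 CPM with STAT3 shRNA stood against 129.1 and 140.8 CPM with Ctrl shRNA (-0.22, edgeR adjusted p = 0.0865), and rows of its pseudogenes held 11.2% of the reads summed over gene and copies. In the authors' FPKM, a unit per transcript length that allows genes to be compared, mean levels over the 4 libraries ran between 70.7 for EIF3J and 411.0 for the EIF3C pair, a range of 5.81-fold.

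Among the eIF4 factors, 4 of 12 fell (33.3%), 1 rose (8.33%) and 7 were not called, beside 18.7% and 16.8% over all tested genes. The largest fall of any initiation factor was that of EIF4E2, at chr2:232550052-232583644 (GRCh38, plus strand). EIF4E2 encodes a cap-binding homologue of eIF4E that does not bind the eIF4G scaffold and is known as a repressor of the translation of some messenger RNAs. It had 46.6 and 44.1 CPM in STAT3 shRNA cells, against 99.3 and 105.8 CPM in Ctrl shRNA cells. The groups were far apart: the mean was 45.3 ± 1.75 CPM with STAT3 shRNA and 102.5 ± 4.64 CPM with Ctrl shRNA (SD, n = 2 each). This gave a log2 fold change of -1.18 ± 0.09 (95% interval -1.38 to -0.98), a 2.26-fold fall with an edgeR adjusted p of 4.38e-05.

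The genes around EIF4E2 were lower too. Of the 50 tested genes nearest to it along chromosome 2, 25 on each side, 32 fell and 0 rose in the same edgeR test, where 18.7% of all tested genes fell and 16.8% rose. Their median log2 fold change was -0.67. Among the 20 nearest, 16 fell and 0 rose, with a median of -0.83. Around the other members, the median over 50 neighbours ran between -0.27 for EIF1AD and 0.37 for EIF2B4. Over 20 neighbours, the median around the other members ran between -0.40 for EIF4A3 and 0.38 for EIF4G2. Of the 20 genes nearest to EIF4A3, 11 fell and 1 rose. Around EIF3B, 10 of 20 fell and 2 rose, with a median of -0.32. The part of these surroundings in the falls of EIF4E2, EIF4A3 and EIF3B was not tested.

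**Figure D4:**
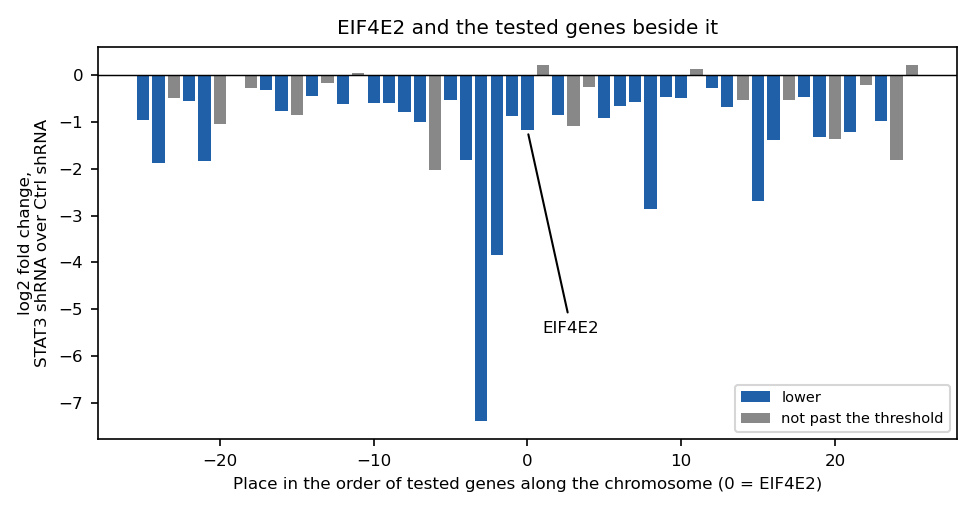
Log2 fold change (STAT3 shRNA over Ctrl shRNA) of EIF4E2 and of the 25 tested genes on each side, in their order along the chromosome. Bars of called genes all point down, and EIF4E2 in the centre stands at -1.18.

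EIF4E, the main cap-binding protein, did not pass the test (edgeR adjusted p = 0.955) and its groups overlapped. It had 46.0 and 45.3 CPM with STAT3 shRNA, against 48.1 and 43.8 CPM with Ctrl shRNA, and the interval of its log2 fold change was -0.22 to 0.21. EIF4E3, an atypical cap-binding homologue, was expressed at a low level and rose, with 187 and 191 reads or 7.02 and 10.4 CPM in STAT3 shRNA cells, against 105 and 81 reads or 5.57 and 4.23 CPM in Ctrl shRNA cells. Its log2 fold change was 0.82 ± 0.24 (edgeR adjusted p = 0.0292), and it was no longer called on the FPKM scale (0.36, limma adjusted p = 0.25), with a GC offset, or on leaving out replicate 2 of either group. In FPKM, EIF4E2 made up 46.9% and 49.1% of the summed cap-binding homologues EIF4E, EIF4E2 and EIF4E3 with STAT3 shRNA, against 67.3% and 74.4% with Ctrl shRNA. The fall of EIF4E2 was larger in FPKM (-1.42, limma adjusted p = 0.0042) than on counts (-1.18). The transcript length that counts and FPKM imply for EIF4E2 was 1077 and 1040 bases with STAT3 shRNA, against 868 and 779 bases with Ctrl shRNA. Its share and its larger fall in FPKM thus do not follow read counts alone.

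The helicase EIF4A1, which unwinds messenger RNA leaders, and its cofactor EIF4H both fell. EIF4H had 534.4 and 515.9 CPM in STAT3 shRNA cells, against 731.9 and 748.0 CPM in Ctrl shRNA cells, with a log2 fold change of -0.49 ± 0.08 and an edgeR adjusted p of 0.00156. EIF4A1, among the most abundant members at a mean of 1184 FPKM, had 1303 and 1263 CPM in STAT3 shRNA cells, against 1613 and 1647 CPM in Ctrl shRNA cells (-0.35 ± 0.07, edgeR adjusted p = 0.00719). The paralogue EIF4A2 did not pass the test, with 323.6 and 357.2 CPM in STAT3 shRNA cells and 293.5 and 288.8 CPM in Ctrl shRNA cells (0.22, edgeR adjusted p = 0.0657). Its share of the FPKM of both helicases was 15.1% and 16.6% with STAT3 shRNA, against 11.6% and 11.9% with Ctrl shRNA. EIF4A3, a related helicase of the exon junction complex, fell, with 143.5 and 143.0 CPM in STAT3 shRNA cells, against 168.8 and 175.7 CPM in Ctrl shRNA cells (-0.27 ± 0.08, edgeR adjusted p = 0.0298). EIF4B, like EIF4H a stimulator of the helicase, gave -0.10 (edgeR adjusted p = 0.345).

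The scaffold proteins of the eIF4G family were not called. EIF4G1, the main scaffold between cap-binding protein and eIF3, had 1007 and 944.6 CPM with STAT3 shRNA, against 1157 and 1080.4 CPM with Ctrl shRNA (-0.20, edgeR adjusted p = 0.0867). EIF4G2, a family member that lacks the binding site for eIF4E, had 804.3 and 792.1 CPM with STAT3 shRNA, against 751.4 and 646.6 CPM with Ctrl shRNA (0.19, edgeR adjusted p = 0.133). The groups did not overlap in either gene, as in 10755 of the 15199 tested genes. EIF4G3, a paralogue of EIF4G1, gave 0.06 and EIF4ENIF1, a carrier of eIF4E into the nucleus, gave 0.08, with edgeR adjusted p-values of 0.613 and 0.578.

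The promoters of the members were searched for the STAT site TTCNNNGAA and for the E-box CACGTG, a site of the MYC family, both of which read the same on either strand. RefSeq sequence (GRCh38.p14) between 250 bases before and 50 bases after the start was matched for 41 of the 48 members. The STAT site was found in 2 of the 41 (4.88%), EIF3I and EIF4E, against 6.26% of 10184 promoters of tested genes and 7.88% of 27305 promoters in all. The E-box was found in 10 of the 41 (24.4%), against 10.4% of promoters of tested genes and 7.43% of all promoters. Of the 10, EIF4H, EIF4A3 and EIF3K fell and the other 7 were not called, beside 28.3% of all tested members that fell, so the E-box members are not set apart by this count. Neither gene with a STAT site was called. A match is a description of the letters and not of binding. The 250 bases before the start are shown as examples for the E-box genes that were called and for EIF4E, which holds both motifs, with capitals marking the matches.
EIF4H, chr7:74174106-74174355, plus strand: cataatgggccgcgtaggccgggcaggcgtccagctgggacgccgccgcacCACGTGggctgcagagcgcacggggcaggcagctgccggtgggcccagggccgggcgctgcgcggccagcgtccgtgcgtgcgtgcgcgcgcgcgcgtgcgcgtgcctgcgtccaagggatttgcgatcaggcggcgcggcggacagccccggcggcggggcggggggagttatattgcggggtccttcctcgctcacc
EIF4A3, chr17:80147129-80147378, minus strand: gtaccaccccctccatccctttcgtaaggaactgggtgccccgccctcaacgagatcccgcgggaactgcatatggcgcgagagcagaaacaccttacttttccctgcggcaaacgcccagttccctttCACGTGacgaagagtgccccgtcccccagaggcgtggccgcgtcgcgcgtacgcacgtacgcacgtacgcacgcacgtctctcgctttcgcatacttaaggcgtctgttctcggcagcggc
EIF3K, chr19:38618938-38619187, plus strand: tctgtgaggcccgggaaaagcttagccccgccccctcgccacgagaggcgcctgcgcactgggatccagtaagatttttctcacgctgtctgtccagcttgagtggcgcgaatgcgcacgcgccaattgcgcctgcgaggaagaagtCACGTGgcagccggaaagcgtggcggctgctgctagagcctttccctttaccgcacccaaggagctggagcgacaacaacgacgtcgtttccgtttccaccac
EIF4E, chr4:98929134-98929383, minus strand: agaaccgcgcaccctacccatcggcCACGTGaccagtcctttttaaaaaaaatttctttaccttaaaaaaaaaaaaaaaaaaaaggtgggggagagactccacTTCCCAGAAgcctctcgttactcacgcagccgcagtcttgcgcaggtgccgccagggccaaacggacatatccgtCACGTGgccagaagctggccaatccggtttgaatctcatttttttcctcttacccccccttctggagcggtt

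Of the 5 tested genes of eIF2 and of tRNA delivery, 1 fell and 4 were not called. EIF2S3, the subunit that binds GTP and the initiator tRNA, had 759.1 and 737.0 CPM in STAT3 shRNA cells, against 978.1 and 833.4 CPM in Ctrl shRNA cells (-0.28 ± 0.09, edgeR adjusted p = 0.0461). The gap between the Ctrl shRNA libraries was wider than that between the lower of them and the STAT3 shRNA libraries. EIF2S1, the subunit whose phosphorylation shuts down initiation in stress, had 160.0 and 162.6 CPM with STAT3 shRNA, against 154.6 and 136.2 CPM with Ctrl shRNA (0.15, edgeR adjusted p = 0.226). EIF2S2, the remaining subunit, gave -0.12 (edgeR adjusted p = 0.27). EIF2A and EIF2D, which can deliver tRNA outside the main route, gave -0.22 and -0.05, with edgeR adjusted p-values of 0.0858 and 0.669.

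In eIF2B, the exchange factor that reloads eIF2 with GTP, 1 of 5 subunits fell. EIF2B5, the catalytic subunit, had 75.3 and 72.0 CPM in STAT3 shRNA cells, against 87.9 and 88.1 CPM in Ctrl shRNA cells (-0.26 ± 0.08, edgeR adjusted p = 0.0399). This call was also lost with DESeq2. The regulatory subunits EIF2B1, EIF2B2 and EIF2B4 gave -0.14, -0.17 and 0.04, and EIF2B3, the partner of EIF2B5, gave -0.20. Their edgeR adjusted p-values were 0.226, 0.264, 0.736 and 0.113, in the order named.

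The 4 tested genes grouped by name with the scanning factors eIF1 and eIF1A gave no call, beside 35.5% of all tested genes called in either direction. EIF1, which guards start codon choice, had 272.1 and 293.6 CPM with STAT3 shRNA, against 304.2 and 305.9 CPM with Ctrl shRNA (-0.11, edgeR adjusted p = 0.326). EIF1AX, its partner in scanning, gave -0.05 with a 95% interval of -0.25 to 0.16. EIF1B, a close paralogue of EIF1, gave 0.00 with an interval of -0.24 to 0.24, and EIF1AD, grouped here by its name only, gave -0.13. Their edgeR adjusted p-values lay between 0.326 for EIF1 and 0.999 for EIF1B.

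Of the 6 eIF5 and eIF6 genes, EIF5A and EIF6 fell (33.3%) and 4 were not called, beside 18.7% of all tested genes that fell. EIF5A, which carries the amino acid hypusine and acts in elongation as well, had the highest mean level of all members, at 1310.3 FPKM. It had 1066 and 1044 CPM in STAT3 shRNA cells, against 1368 and 1470.2 CPM in Ctrl shRNA cells, with a log2 fold change of -0.43 ± 0.08 (edgeR adjusted p = 0.00341). This call was lost without STAT3 shRNA replicate 2 and on the FPKM scale (-0.40, limma adjusted p = 0.0913). EIF6, which keeps the large ribosomal subunit from joining too early, had 121.2 and 124.0 CPM in STAT3 shRNA cells, against 153.4 and 180.8 CPM in Ctrl shRNA cells (-0.45 ± 0.10, edgeR adjusted p = 0.00776). EIF5, which triggers GTP hydrolysis on eIF2, gave 0.02 (edgeR adjusted p = 0.867), and EIF5B, the GTPase of subunit joining, gave 0.20 (edgeR adjusted p = 0.145). The low-level paralogue EIF5A2 had 7.58 and 8.86 CPM with STAT3 shRNA, against 5.62 and 5.75 CPM with Ctrl shRNA, just outside the threshold (0.53 ± 0.18, edgeR adjusted p = 0.0509). EIF5AL1, a copy of EIF5A, had 75 and 45 reads with STAT3 shRNA, against 21 and 32 reads with Ctrl shRNA (0.92 ± 0.34, edgeR adjusted p = 0.067), and its reads cannot be told apart from those of EIF5A with certainty.

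The authors' FPKM values gave the same sign as the counts for most members, with 8 of 46 of opposite sign. The difference was within 0.1 on the log2 scale for 24 members and over 0.3 for 8. Among these 8, EIF5AL1 had 0.81 and 0.71 FPKM with STAT3 shRNA, against 0.3 and 0.45 FPKM with Ctrl shRNA. At such low levels the 1 added before taking log2 shrinks a fold change. On the FPKM scale 4 members rose and 5 fell: EIF4G2 and EIF4ENIF1 gained a call as higher and EIF3F as lower, while EIF2B5, EIF2S3, EIF3B, EIF3G, EIF3K, EIF3L, EIF4A1, EIF5A, EIF6 and EIF4E3 lost theirs. For EIF2S1 the counts gave 0.15 and the FPKM -0.36 (limma adjusted p = 0.0558), with 144.8 and 138.6 FPKM in STAT3 shRNA cells, against 191.2 and 172.6 FPKM in Ctrl shRNA cells. For EIF4G2 the counts gave 0.19 and the FPKM 0.62 (limma adjusted p = 0.0333), with 334.2 and 329.2 FPKM in STAT3 shRNA cells, against 239.1 and 193.4 FPKM in Ctrl shRNA cells. CPM taken without TMM scaling, divided by FPKM, gives the transcript length that the FPKM imply, stated here in bases. For EIF2S1 this was 1139 and 1220.0 bases with STAT3 shRNA, against 790.8 and 750.0 bases with Ctrl shRNA. For EIF5 it was 2128 and 2169 bases with STAT3 shRNA, against 1653 and 1453 bases with Ctrl shRNA, and for EIF4G2 2480.4 and 2502 bases with STAT3 shRNA, against 3073 and 3176 bases with Ctrl shRNA. These genes thus differed between the groups in implied length, whereas EIF4A1 kept 1231 and 1221 bases with STAT3 shRNA and 1231 and 1215 bases with Ctrl shRNA. The genes named here were among those with the larger differences. Over 45 members of at least 1 FPKM, the median absolute log2 ratio of implied length between the groups was 0.095. Over 12201 tested genes of that level it was 0.087, so the members as a set are little set apart. How the FPKM were made was not given in the sources used here.

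**Figure D5:**
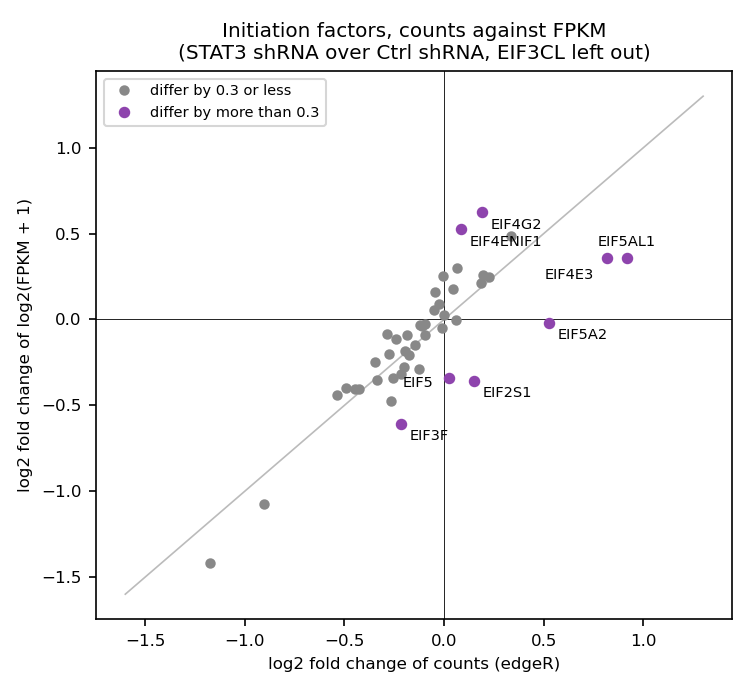
Log2 fold change (STAT3 shRNA over Ctrl shRNA) of the tested initiation factors from counts (x axis) and from log2(FPKM + 1) (y axis), with EIF3CL left out. Most points lie along the diagonal, and the 8 named genes differ by more than 0.3.

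Reads of neighbouring genes can add to some of these values, since the use of strand in counting was not given. For 29 members, another gene with reads overlapped their span, and for 10 of them it had at least 20% as many reads as the member. These 10 were EIF1AD, EIF2A, EIF2B1, EIF2B4, EIF2S1, EIF2S2, EIF3J, EIF4A2, EIF4ENIF1 and EIF5B, none of which was called. For EIF4E2, the overlapping gene TIGD1 had 13.4% as many reads.

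Among genes that regulate initiation, the share called was close to that among all genes. Of 23 tested regulators, 3 rose (13.0%) and 5 fell (21.7%), beside 16.8% and 18.7% over all tested genes, with a median log2 fold change of 0.07 beside 0.02 over all genes. The eIF4E-binding repressors moved apart: EIF4EBP2 had 155.6 and 153.2 CPM with STAT3 shRNA, against 98.6 and 89.0 CPM with Ctrl shRNA (0.72 ± 0.09, edgeR adjusted p = 4.67e-04), and EIF4EBP1 had 95.9 and 93.0 CPM with STAT3 shRNA, against 129.9 and 163.3 CPM with Ctrl shRNA (-0.63 ± 0.11, edgeR adjusted p = 0.00298). The regulatory subunits that direct phosphatase to eIF2 moved apart as well. PPP1R15A, the stress-induced one, had 57.0 and 54.3 CPM with STAT3 shRNA, against 35.1 and 37.0 CPM with Ctrl shRNA (0.63, edgeR adjusted p = 0.0013). PPP1R15B, the constitutive one, had 171.0 and 185.3 CPM with STAT3 shRNA, against 278.5 and 227.5 CPM with Ctrl shRNA (-0.51, edgeR adjusted p = 0.00702), a call that was lost on the FPKM scale and without STAT3 shRNA replicate 1. EIF2AK3, the eIF2 kinase of endoplasmic reticulum stress, rose to 36.4 and 34.8 CPM with STAT3 shRNA, against 23.9 and 23.5 CPM with Ctrl shRNA (0.59, edgeR adjusted p = 0.00238).

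Of 14 tested accessory factors, 2 rose (14.3%) and 1 fell (7.14%), beside 16.8% and 18.7% over all tested genes. PABPC1, the poly(A)-binding protein that contacts eIF4G, had 1163 and 1149.7 CPM in STAT3 shRNA cells, against 851.7 and 766.6 CPM in Ctrl shRNA cells (0.51 ± 0.08, edgeR adjusted p = 0.00183). MTIF3, a mitochondrial initiation factor, had 15.2 and 15.5 CPM in STAT3 shRNA cells, against 8.96 and 10.98 CPM in Ctrl shRNA cells (0.62 ± 0.15, edgeR adjusted p = 0.0141), a call that was lost with a GC offset and on leaving out either STAT3 shRNA library. The accessory factor that fell was BZW1, a mimic of EIF5, which had 285.0 and 315.2 CPM in STAT3 shRNA cells, against 513.8 and 472.2 CPM in Ctrl shRNA cells (-0.72 ± 0.09, edgeR adjusted p = 5.35e-04). Of 14 tested genes of elongation and termination, 2 rose (14.3%) and 8 fell (57.1%), beside the same 16.8% and 18.7%, with a median log2 fold change of -0.28. Of the 8, EEF1A1 and EEF2 each lost their calls in 6 of 15 alternatives, EEF1G in 5 and PELO in 4. Among those that fell were both enzymes that make the hypusine of EIF5A. DOHH had 14.6 and 15.3 CPM in STAT3 shRNA cells, against 29.5 and 35.2 CPM in Ctrl shRNA cells (-1.12 ± 0.12, edgeR adjusted p = 3.00e-04). DHPS had 28.9 and 31.3 CPM in STAT3 shRNA cells, against 39.9 and 42.0 CPM in Ctrl shRNA cells (-0.45 ± 0.10, edgeR adjusted p = 0.00843), and this call was lost on leaving out either STAT3 shRNA library. The elongation factor subunit EEF1B2 fell to 238.1 and 255.2 CPM with STAT3 shRNA, against 424.3 and 500.9 CPM with Ctrl shRNA (-0.91 ± 0.10, edgeR adjusted p = 2.89e-04). EEF1A2, a tissue-restricted form of the tRNA-carrying elongation factor, rose to 554.8 and 568.3 CPM with STAT3 shRNA, against 345.0 and 384.6 CPM with Ctrl shRNA (0.62 ± 0.09, edgeR adjusted p = 8.31e-04).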

How the data were processed

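Total RNA of cells labelled HepG2 was sequenced in 2 STAT3 shRNA and 2 Ctrl shRNA libraries. The authors deposited read counts per gene and, per the file headers, FPKM values for the same libraries. The aligner, the counter and the genome build were not given in the sources used here. The knockdown columns carry the prefix Si in the headers, and were taken as the STAT3 shRNA libraries from that name. Genes were filtered with filterByExpr, scaled by TMM and tested with the quasi-likelihood F test of edgeR 4.0.16 (R 4.3.3) over the 15199 genes left, at an adjusted p under 0.05 (Benjamini-Hochberg). The FPKM were tested with limma 3.58.1 (trend) on log2(FPKM + 1), and DESeq2 1.42.0 was an alternative. A floor of 3 reads is 0.113 to 0.163 CPM in these libraries. On simulated counts for 15199 genes of this comparison, the test called 1 of 50 genes changed 1.25-fold, 16 of 50 changed 1.5-fold, 44 of 50 changed 2-fold, 50 of 50 changed 4-fold and 3 of 14674 unchanged ones, where far fewer genes were changed than were called here. Copies were aligned with blastn 2.17.0 on GENCODE 29 transcripts. The members, the gene lists and the tests were chosen with earlier results of these data known. Values per library were given for EIF3C, EIF3CL and their sum, the 6 largest rises and 6 largest falls among called members of at least 5 CPM, the member of smallest p in each role group, the 3 of highest FPKM, and the 3 called genes of smallest p in each other list. Other genes were given values after theirs were seen. The summed EIF3C pair as 1 gene in the counts of calls, the window of 10 neighbours a side, and the alternatives for STAT3 and the other lists were chosen after seeing the data.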

Additional observations from a re-analysis of the deposited data

How the results depend on the processing

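STAT3 stayed between -2.82 and -2.76 when 1 library was left out. Over all genes, leaving out 1 library gave 1128 to 3367 genes higher and 1399 to 3924 lower, and the FPKM fits gave 1349 higher and 1186 lower with a pseudocount of 1 and 1315 and 1179 with 0.1. Of the initiation factors, leaving out 1 library gave 1 to 8 higher and 4 to 18 lower, with a median of -0.12 to -0.087. Higher calls came to 6 with upper-quartile scaling, 8 with total-count scaling, 5 with a filter of 5 CPM, and 1 with a GC offset with or without the replicate block. Lower calls came to 7 with total-count scaling, 22 with the replicate block and GC offset, and 5 in both FPKM fits. The members' median was 0.00070 with total-count scaling and -0.18 with a GC offset, with or without the block. EIF3C plus EIF3CL gave -0.20 to -0.12 when 1 library was left out and -0.49 in both FPKM fits (not past the threshold), and passed the test at -0.21 with a GC offset, alone (adjusted p = 0.0353) and with the block (adjusted p = 0.0247). The replicate block alone gave 3 members higher and 12 lower, losing EIF2B5, and 2594 genes higher and 2853 lower. Deviations of same-numbered libraries from their group means had a correlation of -0.0242. This does not settle whether libraries of the same number were handled together. Of the regulators, accessory and elongation genes, 12 were higher with total-count scaling, 7 lower in both FPKM fits, and leaving out 1 library gave 5 to 15 higher and 5 to 17 lower. MKNK2 changed sign with a GC offset, to 0.0034, and to 0.0035 with the block. DESeq2 gave 3 members higher and 13 lower, and 12 of the 13 were also lower in edgeR. The cause of these shifts was not tested. In simulated counts with few changed genes, 16 of 50 changes of 1.5-fold were called, so a member not called may have changed.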

Other observations

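EIF4G2 made up 56.6% and 57.8% of the summed FPKM of EIF4G1, EIF4G2 and EIF4G3 with STAT3 shRNA, against 44.8% and 42.3% with Ctrl shRNA. On counts EIF4G2 was not called (0.19, edgeR adjusted p = 0.133). Its implied length was 2480 and 2502 bases with STAT3 shRNA, against 3073 and 3176 bases with Ctrl shRNA. The shares thus do not follow read counts alone. EIF5A2 made up 0.299% and 0.416% of the summed FPKM of EIF5A and EIF5A2 with STAT3 shRNA, against 0.217% and 0.337% with Ctrl shRNA. All initiation factors together took 1.31% and 1.31% of the library reads with STAT3 shRNA, against 1.42% and 1.34% with Ctrl shRNA. For EIF4ENIF1, the implied transcript length was 2404 and 2199 bases with STAT3 shRNA, against 3178 and 2857 bases with Ctrl shRNA. Fibroblast marker genes summed to 35.6 and 35.5 CPM with STAT3 shRNA, against 52.8 and 60.7 CPM with Ctrl shRNA, but went both ways. COL1A1 fell, with a mean of 14.7 ± 0.504 CPM with STAT3 shRNA, against 40.6 ± 3.62 CPM with Ctrl shRNA (SD, n = 2 each, -1.47 on the log2 scale, edgeR adjusted p = 5.00e-05), while DCN rose, with 14.6 and 15.3 CPM with STAT3 shRNA, against 10.4 and 11.3 CPM with Ctrl shRNA (0.46, edgeR adjusted p = 0.0329), and PDGFRB was not called. Endothelial markers summed to 1.16 and 1.68 CPM with STAT3 shRNA, against 1.75 and 1.20 CPM with Ctrl shRNA, and leukocyte markers to 0.450 and 0.272 CPM with STAT3 shRNA, against 0.636 and 0.418 CPM with Ctrl shRNA. The part of these markers in the values of the initiation factors was not tested.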
